A study of Mus musculus with 6 samples.

Results

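Legumain and the lysosomal cathepsins are the proteases with which antigen-presenting cells break down engulfed protein and prepare peptides for MHC class II. The group described here comprised 10 genes: Lgmn, 8 cathepsin genes (Ctss, Ctsb, Ctsl, Ctsh, Ctsz, Ctsc, Ctsk and Ctsd) and Cst3. The last encodes cystatin C, an inhibitor of legumain and the cysteine cathepsins. Members were found by gene symbol among the 54532 annotated features of the count table, and all 10 were among the 14174 genes that passed the filter on low counts. The group was selected on measured values, since the fall of Lgmn after treatment was the reason for choosing it. The difference between treated and control libraries is therefore given for the members as a description, without p-values. Where members are said to be called, this only places them by the same threshold as all other genes and is no support for their change.

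The RNA came from cultured mouse dendritic cells in 2 groups of 3 libraries. The labels named dendritic cells, whereas the study itself is about macrophages. The control libraries were labelled only as control, and whether their cells received a vehicle was not stated. The other libraries came from cells given DB2313, a small molecule that inhibits the binding of the transcription factor PU.1 (gene Spi1) to DNA. The labels gave no strain, age, dose or duration of treatment, and no other agent or allele was named for either group. The treated columns of the table bore the name of Spi1 in place of the compound, so every direction given here depends on reading them as DB2313 libraries. Nothing stated that replicates were separate cultures, so errors and p-values measure only the spread between these libraries, which may be technical.

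Legumain cleaves proteins after asparagine, works in acidic endosomes and lysosomes, and trims the precursors of several cathepsins into their mature forms. The cysteine cathepsins share a papain-like fold but cut differently: cathepsins S, L and K cut within the chain, cathepsin B cuts within the chain and at its end, cathepsins H and C remove residues from the amino end, and cathepsin Z removes them from the carboxyl end. Cathepsin D is an aspartic protease. In dendritic cells, legumain and cathepsin S act on the invariant chain (Cd74) that occupies new class II molecules, and cystatin C is a secreted inhibitor that binds both papain-like cathepsins and legumain.

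Because DB2313 acts on a DNA-binding factor, the sequences before annotated starts are shown first for the members with the largest changes. RefSeq start sites (GRCm38.p6) were matched for 8 of the 10 members, giving 9 windows because Lgmn had 2 starts; Ctsb and Ctsh were not matched. Each line holds the 250 bases before a start, read 5′ to 3′ on the strand of the gene. The Ctsl window and the second Lgmn window lie wholly inside the annotated gene, so they are not upstream of it. The first Lgmn window and that of Cst3 lie partly inside it. Capitals mark GGAA, the core letters recognised by ETS factors such as PU.1, its complement TTCC, and CACGTG, the core of the sites of the MiT/TFE factors that drive lysosomal genes.
Lgmn, first start, chr12:102439729-102439978, minus strand: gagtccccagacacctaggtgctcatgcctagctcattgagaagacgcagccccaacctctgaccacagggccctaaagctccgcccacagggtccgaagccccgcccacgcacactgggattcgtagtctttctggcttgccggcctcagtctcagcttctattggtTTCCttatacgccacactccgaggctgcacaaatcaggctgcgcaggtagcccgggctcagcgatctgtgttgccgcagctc
Lgmn, second start, chr12:102439093-102439342, minus strand: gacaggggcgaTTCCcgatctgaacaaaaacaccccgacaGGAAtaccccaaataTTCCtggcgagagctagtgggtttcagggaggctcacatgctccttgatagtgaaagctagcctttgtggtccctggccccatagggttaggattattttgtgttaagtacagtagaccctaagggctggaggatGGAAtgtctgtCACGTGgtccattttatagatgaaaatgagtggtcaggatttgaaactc
Ctsl, chr13:64370521-64370770, minus strand: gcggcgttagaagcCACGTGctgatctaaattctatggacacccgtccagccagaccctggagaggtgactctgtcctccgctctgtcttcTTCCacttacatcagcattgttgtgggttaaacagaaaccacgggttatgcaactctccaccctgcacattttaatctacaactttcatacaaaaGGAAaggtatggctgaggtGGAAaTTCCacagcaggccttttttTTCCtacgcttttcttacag
Cst3, chr2:148875513-148875762, minus strand: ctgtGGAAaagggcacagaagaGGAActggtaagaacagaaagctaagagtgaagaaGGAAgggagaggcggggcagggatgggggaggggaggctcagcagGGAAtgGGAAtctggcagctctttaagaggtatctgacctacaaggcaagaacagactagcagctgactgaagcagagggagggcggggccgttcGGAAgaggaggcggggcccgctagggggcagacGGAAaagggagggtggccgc

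Letters were counted on both strands over the 250 bases before and the 50 bases after each start. GGAA occurred in 9 of 9 member windows, and in 96.0% of all 32544 RefSeq windows of the same length. The first Lgmn window held 1 match to GGAA and none to CACGTG, and the second held 5 and 1. Both the Ctsl window and the second Lgmn window held CACGTG, as did that of Ctsd, and this word was present in 7.17% of all windows. The Cst3 window held 8 matches to GGAA.

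The longer words GAGGAA and GGAAGT, which overlap GGAA and are common in PU.1 sites, were found in 4 and 3 of the 9 member windows. They were present in 28.1% and 23.7% of all windows. Ctsk, Ctss and Ctsc held both words, Cst3 held GAGGAA, and neither Lgmn window held either one. The sites with GGAAGT are shown as 30 bases each, because Ctss was among the members that fell and the other pair allows a comparison; capitals mark GGAAGT or GAGGAA as read on the opposite strand.
Ctss, chr3:95526772-95526801, plus strand: aaatgaaagttcACTTCCTCattgtggatg
Ctsc, chr7:88277922-88277951, plus strand: tgtcactaactaACTTCCTCaggccacctc
Ctsk, chr3:95499220-95499249, plus strand: ctgctggagttgACTTCCgcaatccttacc
A match is a description of letters, and binding was not measured here.

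Depth and makeup of the libraries were examined before the members were compared. Total counts lay between 16146743 and 19764677. Pairs of control libraries had a chi-square of 4.77 to 5.28 per degree of freedom, and pairs of DB2313 libraries 7.43 to 17.65, with DB2313 replicates 1 and 3 farthest apart. Of 18 dendritic cell markers, 15 exceeded 10 CPM (counts scaled by TMM to a common library size and read depth), and Cd209a stayed under 1 CPM. All 14 macrophage markers and all 12 neutrophil markers were also detected. Summed dendritic cell markers ranged from 7983 to 8749 CPM in control and from 6477 to 8080 CPM in DB2313 libraries, with 2 genes called higher and 3 lower. Ccl22, the largest of them, was at 3600 to 4081 and 2824 to 3705 CPM and was not called. For macrophage markers the ranges were 10400 to 11820 and 9425 to 10370 CPM, with 2 called higher and 5 lower. Most of this sum was Lyz2, which was at 8285 to 9555 and 7561 to 8253 CPM and was not called. Neutrophil markers summed to 4841 to 5317 and 5217 to 6505 CPM, with 4 called higher and 1 lower. Mast cell and basophil markers summed to 2577 to 2783 and 2640 to 3147 CPM, with 2 called higher and 0 lower. T cell markers summed to 396 to 427 and 392 to 501 CPM, with 1 called higher and 0 lower. Markers of B cells, fibroblasts and erythroid cells each summed to at most 7.35 CPM in any library, and the fibroblast genes Col3a1, Dcn and Lum were at 0. In such bulk libraries, fewer cells of a type and less RNA per cell cannot be told apart.

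Of the 10 members, 3 were called lower in the DB2313 libraries (Lgmn, Cst3 and Ctss) and 1 was called higher (Ctsl). Calls came from the quasi-likelihood test of edgeR at a Benjamini-Hochberg adjusted p under 0.05 over all tested genes, by which 10.6% of genes were called, 5.94% lower and 4.66% higher. The values of the 2 groups did not overlap for 7 members, against 27.4% of all tested genes. These 7 included Ctsb, Ctsh and Ctsz, which were lower without being called by edgeR. With single libraries left out, 2 to 5 members were called lower: 5 without DB2313 replicate 3, 4 without DB2313 replicate 1, and 2 without DB2313 replicate 2 or any control library. An offset for gene length gave 5. Over all genes, of which 14174 to 14580 were tested, 842 were called lower with all libraries and 983 with the offset. Omitting DB2313 replicates 1, 2 and 3 gave 922, 411 and 1311 genes called lower, and omitting control replicates 1, 2 and 3 gave 485, 436 and 471. The median log2 fold change of the members was -0.18, beside 0.00082 for all genes tested.

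Lgmn lies on chromosome 12 (minus strand, 102394084 to 102439813, GRCm38, as for the other genes below) and has 14 exons. It was measured at 304, 305 and 321 CPM in control replicates 1 to 3 and at 118, 103 and 102 CPM in DB2313 replicates 1 to 3. Every treated library lay far under every control library, and both groups were tight. The mean was 310 ± 9.33 CPM (SD, n = 3) in control and 108 ± 9.13 CPM in DB2313 libraries, a log2 fold change of -1.52 ± 0.076 (SE), or 2.88-fold lower. Counts behind these values were 4865 to 5113 and 1695 to 2057 reads. Lgmn stood far down the list of all genes, with 55 of 14174 having a lower log2 fold change. Among the 886 genes at or above its mean level, 2 did, the mitochondrially encoded mt-Nd1 and mt-Nd2.

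**Figure D1:**
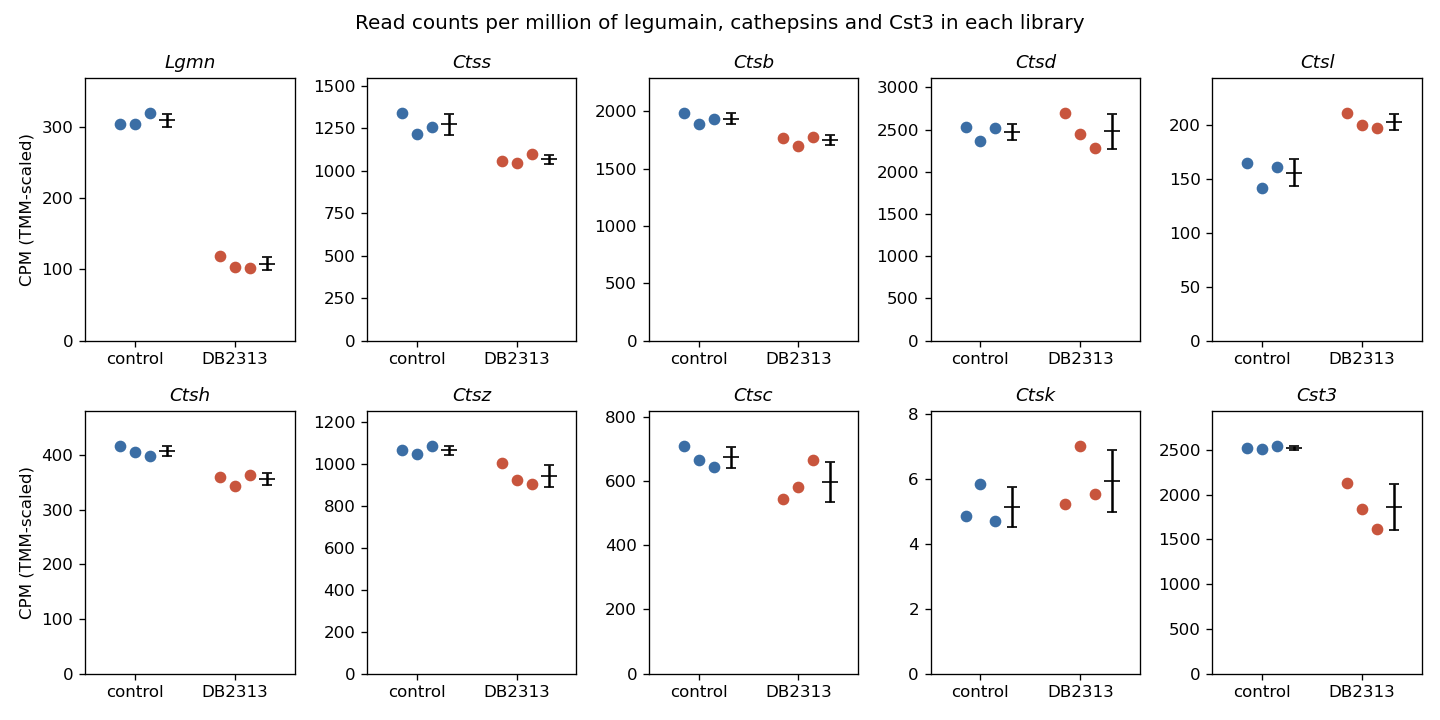
Level of each member in every library, in CPM, with one panel per gene; blue (control) and red (DB2313) points are single libraries, and the black dash with bars is the mean ± SD of the group (n = 3). The DB2313 libraries of Lgmn sit at 102 to 118 CPM and the control libraries at 304 to 321 CPM, whereas the groups of Ctsd, Ctsc and Ctsk overlap.

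Cathepsin S is the cysteine cathepsin most closely tied to the last step of invariant chain removal in dendritic cells. Ctss (chromosome 3, plus strand, 95526786 to 95556403) was at 1343, 1220 and 1260 CPM in control and at 1060, 1046 and 1098 CPM in DB2313 replicates 1 to 3. All treated libraries were under all control libraries, by a small margin. The log2 fold change was -0.25 ± 0.065. Its call was lost when any one of the 3 control libraries or DB2313 replicate 2 was left out, with log2 fold changes of -0.28 to -0.21 over all 6 omissions.

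Cathepsin L was the member that moved the other way. Ctsl (chromosome 13, minus strand, 64359337 to 64370890) was at 165, 142 and 162 CPM in control and at 212, 200 and 197 CPM in DB2313 replicates 1 to 3. Each treated library exceeded each control library. The mean went from 156 ± 12.7 to 203 ± 7.77 CPM (SD, n = 3), a log2 fold change of 0.38 ± 0.076. The ratio of Ctss to Ctsl counts was 7.79 to 8.62 in control and 5.01 to 5.57 in DB2313 libraries.

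The carboxypeptidase-like Ctsb and Ctsz and the aminopeptidase Ctsh had means slightly under those of the control libraries. Ctsb (chromosome 14, plus strand, 63122462 to 63145923) was at 1988, 1889 and 1931 CPM in control and at 1769, 1700 and 1774 CPM in DB2313 replicates 1 to 3, with no overlap. Ctsz (chromosome 2, minus strand, 174427493 to 174439039) was at 1063, 1044 and 1086 CPM against 1001, 920 and 903 CPM. Ctsh (chromosome 9, plus strand, 90054152 to 90076089) was at 418, 407 and 399 CPM against 360, 344 and 364 CPM. For all 3 genes every treated library was under every control library. Their log2 fold changes were -0.15 ± 0.062, -0.18 ± 0.066 and -0.20 ± 0.064, and edgeR called none of them. DESeq2 called Ctsh, and an offset for gene length Ctsh and Ctsz. Ctsh was also called without DB2313 replicate 3 (-0.21), and Ctsz without DB2313 replicate 1 (-0.22).

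Cathepsin C activates the serine proteases of neutrophils, mast cells and cytotoxic lymphocytes. Ctsc (chromosome 7, plus strand, 88278085 to 88310888) was at 710, 666 and 643 CPM in control and at 543, 580 and 666 CPM in DB2313 replicates 1 to 3, so DB2313 replicate 3 fell inside the control range. Its log2 fold change was -0.18 ± 0.079, and -0.26 without DB2313 replicate 3, when it was called. Cathepsin K, the collagen-degrading enzyme of osteoclasts, was low. Ctsk (chromosome 3, plus strand, 95499256 to 95509362) had 75 to 140 reads and 4.70 to 7.02 CPM in any library, the groups overlapped, and its log2 fold change of 0.21 ± 0.20 was about as large as its error.

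The aspartic protease Ctsd (chromosome 7, minus strand, 142375911 to 142388038) did not separate the groups. Its values were 2528, 2364 and 2515 CPM in control and 2702, 2453 and 2287 CPM in DB2313 replicates 1 to 3, so the treated libraries lay on both sides of the control ones. The log2 fold change was 0.0066 ± 0.072. Its sign changed when control replicate 2 (-0.018) or DB2313 replicate 1 (-0.058) was left out, and no such fit called it.

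Cystatin C was the inhibitor in the group and the most abundant member per unit length. Cst3 (chromosome 2, minus strand, 148871722 to 148875692) was at 2524, 2504 and 2547 CPM in control and at 2132, 1839 and 1616 CPM in DB2313 replicates 1 to 3. The control libraries were nearly equal, whereas the treated ones were spread out and all lower. The mean fell from 2525 ± 21.6 to 1863 ± 258 CPM (SD, n = 3), a log2 fold change of -0.44 ± 0.085. Of the 15 dendritic cell markers over 10 CPM, 6 ranked the DB2313 libraries as Cst3 did, 2 ranked them in reverse and 7 in other orders. Ccr7, of the first kind, was at 1497, 1355 and 1194 CPM, and Zbtb46, of the second, at 66.8, 74.9 and 81.5 CPM. Both orders also occurred outside the dendritic cell list. In DB2313 replicates 1 to 3 the neutrophil marker Ngp was at 1419, 1147 and 994 CPM, and Mmp8 at 570, 649 and 691 CPM. The share of all genes with either order was not counted. The part of any cell type in the Cst3 values was not tested.

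**Figure D2:**
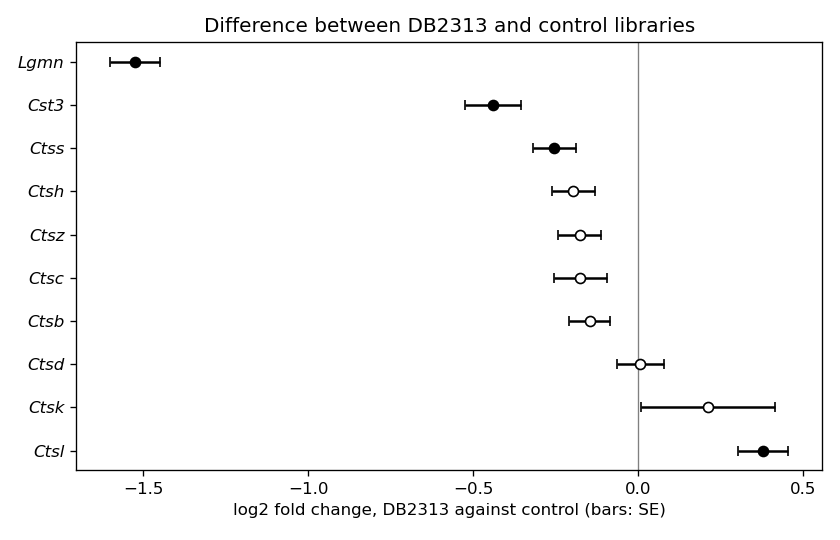
Log2 fold change of each member in DB2313 against control libraries, with bars of 1 standard error; filled points were called at an adjusted p under 0.05 and open points were not, and the vertical line marks no change. Lgmn is at -1.52, Cst3 at -0.44, Ctss at -0.25 and Ctsl at 0.38, and the other members lie between -0.20 and 0.21.

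Levels of different genes were ordered per length, as CPM per kilobase of the deposited gene length, which equalled the union of GENCODE exons for every member. In control libraries the order was Cst3 (1995 ± 17.1), Ctsd (1050 ± 38.9), Ctss (938 ± 46.4), Ctsz (739 ± 14.7), Ctsb (320 ± 8.18), Lgmn (133 ± 4.02), Ctsc (116 ± 5.79), Ctsh (90.6 ± 2.13), Ctsl (24.1 ± 1.96) and Ctsk (3.39 ± 0.405; SD, n = 3). No neighbours in this order overlapped in their 3 values. In DB2313 libraries Lgmn, at 46.4 ± 3.93 CPM per kilobase, went from rank 6 to rank 8, while Ctsc (103) went from rank 7 to 6 and Ctsh (79.1) from rank 8 to 7; the other members kept their ranks.

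The deposited length counts exons of all isoforms, which matters for Ctsl, Ctsh and Ctsc. Their principal transcripts were 1971, 1617 and 2493 bp long, against 6489, 4499 and 5808 bp deposited. Per kilobase of the principal transcript, a choice made after the data were seen, Lgmn in control libraries stood at 156 ± 4.69 and rank 8, under Ctsc (270) and Ctsh (252), whose values overlapped. In DB2313 libraries it stood at 54.2 ± 4.59 and rank 9, under Ctsl (103 ± 3.94).

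**Figure D3:**
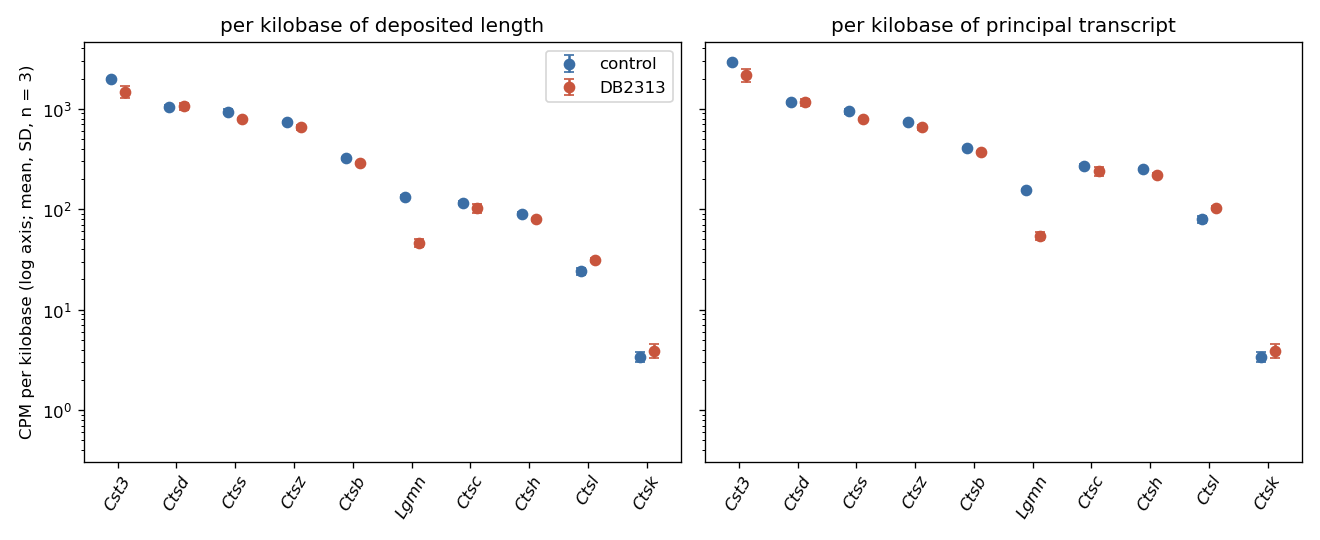
Level of each member in control (blue) and DB2313 (red) libraries in CPM per kilobase on a log axis, by deposited length (left) and by principal transcript length (right); points are means and bars the SD (n = 3). Lgmn goes from 133 to 46.4 CPM per kilobase on the left and from 156 to 54.2 on the right, and Cst3 is highest and Ctsk lowest in both groups.

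Ratios of counts between members within a library do not depend on the scaling of the library. They are not corrected for gene length, so only their difference between groups is described. The ratio of Lgmn to Ctss counts was 0.226 to 0.255 in control and 0.0928 to 0.112 in DB2313 libraries. That of Lgmn to Ctsl counts was 1.84 to 2.16 in control and 0.516 to 0.559 in DB2313 libraries. The ratio of Cst3 counts to the summed counts of the 7 cysteine cathepsins was 0.443 to 0.466 in control and 0.323 to 0.431 in DB2313 libraries. The ratio of Ctsb to Ctsd, 0.768 to 0.799 against 0.655 to 0.776, overlapped between the groups. The 10 genes together took 1.04 to 1.10% of all counts in control and 0.920 to 0.981% in DB2313 libraries.

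Several members share sequence with other features. Ctsd shares 671 bp with the overlapping gene Gm49369. Ctsl shares 977 bp with Gm47123 on the opposite strand and 395 bp with the pseudogene Gm49230, both of which overlap it. No read was assigned to Gm49369, Gm47123 or Gm49230, and whether reads from the shared stretches went uncounted was not tested. Ctsl also holds short stretches of at most 191 bp that match other expressed genes at 95% identity or more. Ctsb shares 774 bp with Fdft1 on the opposite strand, and Fdft1 had at most 1124 counts where Ctsb had up to 33900. Ctsz overlaps Nelfcd on the opposite strand, which had at most 973 counts against up to 18340. Because strandedness is not known, reads from the stretches where these pairs overlap cannot be told apart. No overlap or near copy was found for Lgmn, Ctsh, Ctsk or Cst3.

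Lgmn was then compared with all other protein-coding genes by the profile of log2 CPM over the 6 libraries, centred on the mean of each gene. Likeness was measured as the root mean square difference from Lgmn, among 9442 candidates. The nearest were Rgs1 (0.115), a regulator of G protein signalling, Gch1 (0.134), the first enzyme of tetrahydrobiopterin synthesis, mt-Nd2 (0.158), a subunit of respiratory complex I, Arg1 (0.161), the arginine-cleaving enzyme arginase, and Spata31d1b (0.168). Mean levels went from 111 to 41.3 CPM for Rgs1, from 22.5 to 8.26 CPM for Gch1, from 977 to 286 CPM for mt-Nd2, from 59.1 to 17.5 CPM for Arg1 and from 13.1 to 3.85 CPM for Spata31d1b. Spata31d1b has a near copy, Spata31d1a, which had at most 1 count. As these genes were chosen for this pattern, no test is given. No member was among them.

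**Figure D4:**
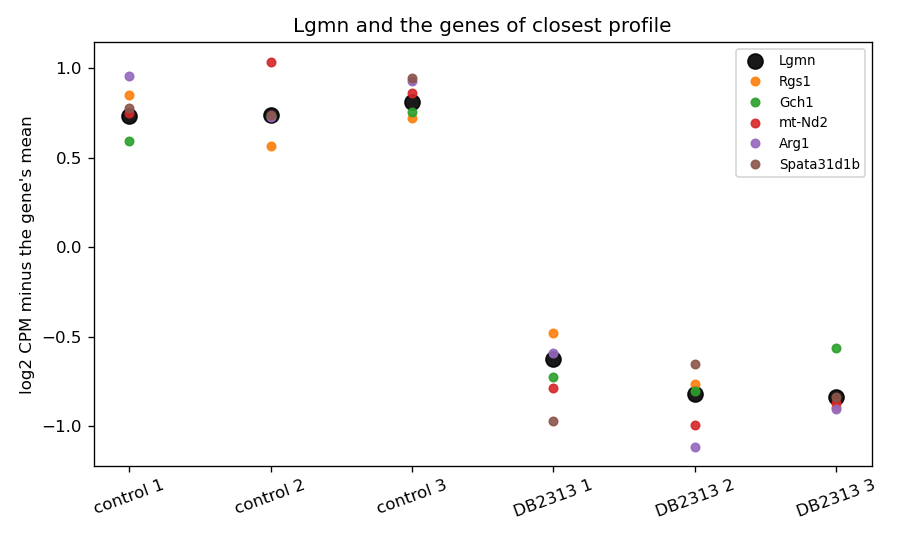
Log2 CPM of Lgmn and of the 5 genes with the nearest profile in the 6 libraries, each centred on its own mean, with 1 point per gene and library and Lgmn in black. All 6 genes are higher in the control than in the DB2313 libraries, and Rgs1, at a root mean square difference of 0.115, lies closest to Lgmn.

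The wider lysosomal and presentation machinery was described with 9 lists of 105 other genes, 88 of them tested. Of these, 8 were called higher and 8 lower, 18.2% in all, beside 10.6% of all genes tested (4.66% higher and 5.94% lower). DESeq2 called 9 higher and 11 lower, and limma-voom 9 and 10. Over all 14174 genes, DESeq2 called 745 higher and 906 lower, and limma-voom 639 and 859. Their median log2 fold change was -0.0079, beside 0.00082 for all genes tested. As the lists were chosen with earlier results known and hold few genes each, the counts per list below describe only their members. The counts depended on single libraries: leaving out control replicate 1 gave 2 higher and 5 lower, and leaving out DB2313 replicate 3 gave 15 higher. An offset for gene length gave 8 higher and 14 lower. The count of list genes called higher was 3 without control replicate 2, 4 without control replicate 3 and 3 without DB2313 replicate 2. Calls over all genes changed in these fits too. Omitting control replicates 1, 2 and 3 gave 361, 360 and 383 called higher, and 485, 436 and 471 lower. Omitting DB2313 replicate 2 gave 328 higher and 411 lower, and omitting DB2313 replicate 3 gave 1097 and 1311. The length offset gave 844 and 983. Adjusted p-values below come from the same edgeR test over 14174 genes.

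Spi1, the target of the compound, was at 366 ± 18.4 CPM in control and 329 ± 20.1 CPM in DB2313 libraries (SD, n = 3), a log2 fold change of -0.15 ± 0.071 that was not called (adjusted p = 0.206). Of the MiT/TFE factors, which switch on lysosomal genes, 0 of 4 were called by edgeR, DESeq2 or limma-voom. An unadjusted p under 0.05 was found for 0 of them, and the share of all genes under this threshold was not counted. Their log2 fold changes were 0.013 ± 0.088 for Tfeb, -0.12 ± 0.072 for Tfe3, -0.023 ± 0.10 for Mitf and -0.14 ± 0.099 for Tfec, with a median of -0.073.

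Of the other cathepsins, 6 of 15 were tested and the 9 rodent placental and related genes among them had no reads in any library; the median log2 fold change was 0.024. Ctsg, a serine protease of neutrophil granules, rose from 123 to 154 CPM (log2 fold change 0.33 ± 0.082, adjusted p = 0.019). The call was lost without control replicate 1 (adjusted p = 0.122) or DB2313 replicate 2 (0.0817). Of 9 cystatins and stefins tested, edgeR called 2 higher and none lower, while DESeq2 and limma-voom each called 2 higher and 1 lower. An unadjusted p under 0.05 was found for 6, and the share of all genes under this threshold was not counted. The median log2 fold change was 0.26. Both genes called by edgeR were stefins, cytosolic inhibitors of cysteine cathepsins: BC100530 went from 55.8 to 76.2 CPM (0.45 ± 0.10, adjusted p = 0.0095) and Stfa2l1 from 13.8 to 20.1 CPM (0.54 ± 0.15, adjusted p = 0.0268). BC100530 shares 618 bp with the near copy Stfa1, so its value is uncertain, as is that of Stfa2l1, which shares 368 bp with Stfa2. The BC100530 call was lost without control replicate 1 (0.070) or DB2313 replicate 2 (0.0574), and that of Stfa2l1 without any control library or DB2313 replicate 1 (0.0532 to 0.129). Of the 12 neutrophil markers, 4 were called higher, 1 lower and 7 neither way. Elane, another granule protease, was at 26.1 to 28.7 CPM in control and 37.7 to 48.0 CPM in DB2313 libraries, whereas the receptor gene Csf3r was at 46.9 to 54.5 and 36.0 to 40.2 CPM. Their part in the Ctsg and stefin values was not tested.

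Among other lysosomal peptidases, 1 of 6 was called and the median log2 fold change was -0.16. Scpep1, a serine carboxypeptidase, fell from 244 to 189 CPM (log2 fold change -0.37 ± 0.066, adjusted p = 0.0019). Of the 9 genes of mannose 6-phosphate sorting, by which new cathepsins reach the lysosome, 3 were called and all were lower, with a median log2 fold change of -0.081. The adaptors Gga2 (-0.51 ± 0.068, adjusted p = 1.9e-04) and Gga3 (-0.38 ± 0.079, adjusted p = 0.0059) fell from 189 to 133 CPM and from 74.8 to 57.7 CPM, and the sorting receptor Sort1 fell from 215 to 171 CPM (-0.33 ± 0.082, adjusted p = 0.0188). The Sort1 call was lost without control replicate 1 (0.087), control replicate 2 (0.121) or DB2313 replicate 2 (0.101). Gga3 overlaps Mrps7 on the opposite strand and shares a stretch of 127 bp with it. Mrps7 had up to 1118 counts, near those of Gga3 (up to 1296), and reads from the overlap cannot be told apart.

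Acidification is needed for legumain and the cathepsins to work. Of 18 subunits of the vacuolar ATPase, 3 were called higher and 1 lower, with a median log2 fold change of 0.079. Atp6v0d2, a membrane-sector subunit abundant in osteoclasts and macrophages, fell from 64.0 to 29.4 CPM (log2 fold change -1.12 ± 0.11, adjusted p = 8.9e-06). Atp6v1e1 (0.34 ± 0.076, adjusted p = 0.0089), Atp6v0e (0.26 ± 0.078, adjusted p = 0.0494) and Atp6v1b2 (0.23 ± 0.064, adjusted p = 0.0285) rose. The call of Atp6v1e1 was lost without control replicate 2 (0.0603), that of Atp6v0e without any library but DB2313 replicate 3 (0.118 to 0.181), and that of Atp6v1b2 without any control library or DB2313 replicate 2 (0.0905 to 0.170).

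Of 17 lysosomal membrane proteins tested, 1 was called higher and 1 lower, with a median log2 fold change of 0.044. Laptm4a rose from 176 to 247 CPM (log2 fold change 0.49 ± 0.068, adjusted p = 3.0e-04). Scarb2, the receptor that carries glucocerebrosidase to the lysosome, fell from 185 to 155 CPM (-0.25 ± 0.076, adjusted p = 0.0458). Its call was lost without any library but DB2313 replicate 3 (0.0552 to 0.245).

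In the class II list, 1 of 12 genes was called higher and 1 lower, with a median log2 fold change of -0.10. H2-Eb2, a class II beta chain gene, fell from 31.5 to 20.1 CPM (log2 fold change -0.65 ± 0.099, adjusted p = 6.3e-04). Ifi30, the thiol reductase that opens disulphide bonds of antigens for the cathepsins, rose from 195 to 236 CPM (0.27 ± 0.079, adjusted p = 0.0372), and lost its call without any control library or DB2313 replicate 2 (0.0654 to 0.220). The invariant chain Cd74, a substrate of legumain and cathepsin S, was at 6557 CPM in control and 5999 CPM in DB2313 libraries (-0.13 ± 0.074, adjusted p = 0.326). Of 7 genes of endosomal Toll-like receptors, several of which are cut by cathepsins and legumain, 1 was called, with a median log2 fold change of -0.060. Tlr13 fell from 125 to 90.0 CPM (-0.47 ± 0.097, adjusted p = 0.0052), a call lost without control replicate 1 (0.0511).

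**Figure D5:**
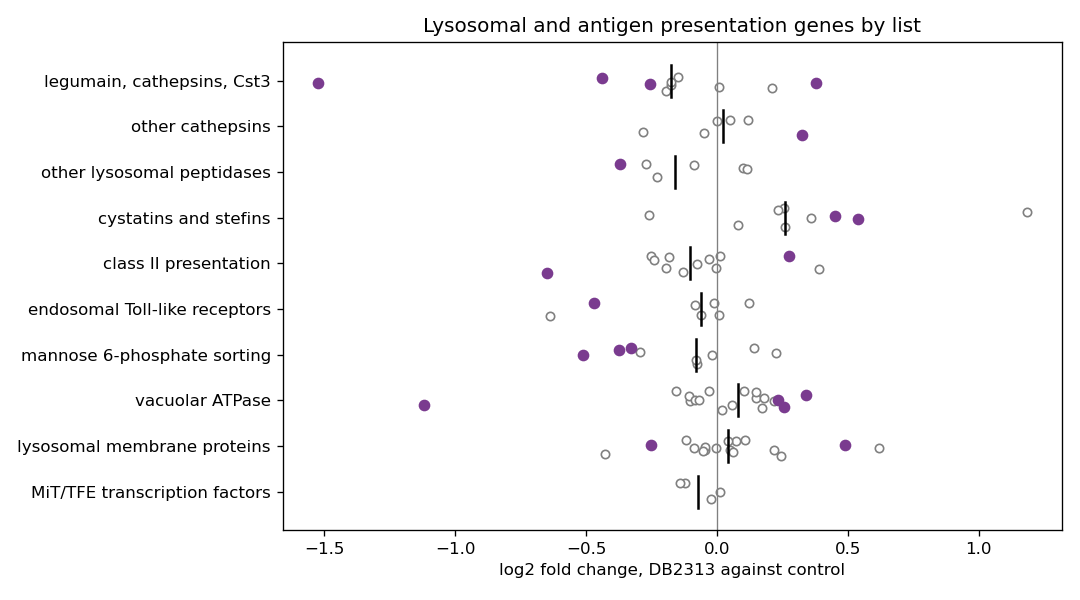
Log2 fold change of every tested gene in the members and in each of the 9 lists, 1 point per gene, with filled points for genes called at an adjusted p under 0.05, open points for the others and a black bar for the median of each list. Lgmn is at -1.52 and Atp6v0d2 at -1.12, and medians of the lists lie between -0.18 and 0.26.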

How the data were processed

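RNA-seq counts of 3 control and 3 DB2313-treated dendritic cell libraries were used, grouped by the treatment in the labels. The authors deposited raw counts per gene with gene lengths in base pairs. The processing notes of the submitters name CASAVA 1.8, HISAT2 2.0.5 and featureCounts 1.5.0-p3, whereas the methods of the study name LifeScope. Strandedness, genome build and the treatment of multi-mapped reads were not given in the sources used here. Coordinates are given as GRCm38, because start and end matched those of GENCODE M21 for 98.33% of 54409 identifiers found in both. Unknown strand or multi-mapping rules could shift counts of overlapping or duplicated genes.

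Members and lists were chosen with earlier results of these data known. Counts were tested with the quasi-likelihood test of edgeR 4.0.16 (limma 3.58.1, R 4.3.3) with filterByExpr, TMM scaling and no covariate, and p-values were adjusted over 14174 genes by Benjamini-Hochberg; genes at an adjusted p under 0.05 were called. The SE of a log2 fold change is its size divided by the square root of the F statistic. CPM used TMM-scaled totals, and counted reads carried no molecular identifiers, so counts are not counts of molecules. The test was first run on artificial counts with known changes.

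Named were the members, Spi1, the MiT/TFE factors and, per list, up to 3 called genes in each direction with a mean log2 CPM of at least 1, plus the 5 genes nearest to Lgmn in profile (mean log2 CPM of at least 3, pseudocount of 0.5 CPM). Cd74 and the marker genes were named after their values were seen. Alternatives were the omission of the filter, library totals or DESeq2 size factors in place of TMM, and limma-voom or DESeq2 for edgeR. The study names DESeq2 in an earlier version, and version 1.42.0 was used here. Other alternatives were a length offset from a lowess curve with a span of 0.3, a replicate block, and block and offset together. Each library was also left out in turn. Copies were searched with blastn 2.17.0.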

Additional observations from a re-analysis of the deposited data

How the results depend on the processing

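Over 14 alternatives, Lgmn (log2 fold change -1.60 to -1.49), Cst3 (-0.55 to -0.35) and Ctsl (0.32 to 0.42) kept their direction and side of the threshold; for the members, and for Lgmn above all, this describes the same 6 libraries on which the group was chosen and is no independent support. Ctss (-0.32 to -0.21) lost its call in 5, Ctsh gained one in 3, Ctsz in 3 and Ctsc in 1. The number of members called lower was 3, and 2 to 5 when single libraries were left out (5 without DB2313 replicate 3, 2 without DB2313 replicate 2 or any control library); 1 was called higher throughout. With an offset for gene length, 5 members and 14 list genes were called lower. List genes called lower numbered 5 to 12, and those called higher 2 to 15, on leaving out single libraries. Over all genes, these omissions gave 411 to 1311 called lower and 328 to 1097 called higher, and the length offset gave 983 and 844. Ctsd was at -0.028 with the length offset, -0.029 with offset and block, and -0.058 to 0.063 with a library left out. Mitf was at 0.0016 when scaled by library totals and -0.12 to 0.039 with a library left out, and Tfeb at -0.070 to 0.060. The cause of these changes was not tested. Spi1 was called under the length offset (-0.18, adjusted p = 0.0433) and in no other alternative.

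Deviations of same-numbered libraries from their group means correlated at -0.0080, -0.019 and -0.15, which gave no sign of pairing by replicate number. So few libraries cannot settle whether they were paired, and the labels did not say. Under the replicate block, 2 members were called lower and 5 list genes higher. With block and length offset, 4 list genes were called higher. Over all 14174 genes, the block gave 502 called higher and 629 lower, and block with offset 673 and 803. The block changed the call of Ctss among the members and of no other member. Over all genes, 661 were called higher and 842 lower, against 328 and 411 without DB2313 replicate 2 and 1097 and 1311 without DB2313 replicate 3.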
